A study of Rattus norvegicus with 10 samples.

Results

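Of the sites where rat cardiomyocytes carried an N6-methyladenosine (m6A) peak in both culture conditions, 1006 had an m6A pileup listed as about double or more in hypertrophic against quiescent cells. A site is a pair of peaks, 1 from each condition's deposited list, that overlap and whose summits (the highest base of each peak) lie within 100 bp of each other. Both peak scores had to be from 100 to under 3100 and both widths at most 2000 bp. Starting from 65539 hypertrophic peaks, 42738 could be paired in this way, of which 24989 met the score bounds in both lists and 24489 also met the width bound. No quiescent peak was used in more than 1 pair. For each pair the log2 ratio of the hypertrophic to the quiescent summit height was taken and the median over all pairs, 0.15, was subtracted. Sites with a centred ratio of at least 0.8 were kept, which is a hypertrophic summit at least 1.93 times as tall as the quiescent one. They are called hypertrophy-tall sites here. They made up 4.11% of the 24489 pairs (exact Clopper-Pearson interval 3.86 to 4.36%, counting error only) and 1.53% of all hypertrophic peaks. The sites were chosen by their summit heights, so heights, scores and widths are given as a description and were not tested.

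m6A is a methyl mark on adenosines of RNA. It is added by a complex built around METTL3 and METTL14, can be removed by demethylases such as FTO and ALKBH5, and is read by YTH-domain proteins that affect the decay and translation of the marked transcript. In messenger RNA it is often found near stop codons and in the untranslated region that follows. Hypertrophy is the growth in size by which cardiomyocytes respond to stimulation, and METTL3 is known as a regulator of that growth.

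Primary cardiomyocytes came from newborn rats 1 to 3 days old. Hypertrophic cells were kept in M199 medium with 2% bovine serum, and quiescent cells in the same medium without serum. Per the labels there were 2 m6A immunoprecipitates (IP) of each condition, 2 input RNA libraries of each condition and 2 control IPs with normal IgG, an antibody without affinity for m6A, from hypertrophic cells. The authors deposited 1 peak list per condition, and both were called with that IgG control, so there is no spread between replicates for any value. The sources used here do not say whether a list rests on 1 or both IP libraries. The labelled cell type was not checked against marker genes, because the lists carry positions and no gene names. Sites are therefore named by their hypertrophic peak in rat build rn4, counted from 1.

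Summit height is the deposited read pileup at the summit base. It was a whole number at all 65539 hypertrophic and 68440 quiescent summits, with no scaling stated, and it is the only measure of depth behind a site. The input libraries are not analysed here, so a larger methylated share of a transcript and more of that transcript cannot be told apart, nor can more cells making it and more RNA per cell. The peak score is the authors' own value per peak, from a comparison with the shared IgG control, and whether its scale is the same in both lists was not tested.

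In hypertrophic cells the hypertrophy-tall sites had summits of ordinary height, and in quiescent cells low ones. Their hypertrophic heights ran from 12 to 123 with a median of 32 and quartiles of 24 and 43.75. The quiescent heights of the same sites ran from 6 to 61 with a median of 14 and quartiles of 10 and 19. Over all 24489 pairs the median was also 32 in hypertrophic cells, but 28 in quiescent cells. The median site was thus as tall in hypertrophic cells as the median pair, and lower than it in quiescent cells. The rule itself sets the heights of a site apart, so these values describe the choice.

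Most of these differences were close to a doubling. The median ratio of hypertrophic to quiescent height was 2.19, with quartiles of 2.00 and 2.43, against 1.11 over all pairs. The median centred log2 ratio was 0.98. A hypertrophic height of exactly double the quiescent one was found at 177 sites (17.6%), and 920 sites (91.5%) reached a doubling or more. At least a tripling was found at 73 sites (7.26%) and at least a quadrupling at 9 (0.895%). The median difference in height was 18 reads of pileup, and the largest was 71.

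**Figure D1:**
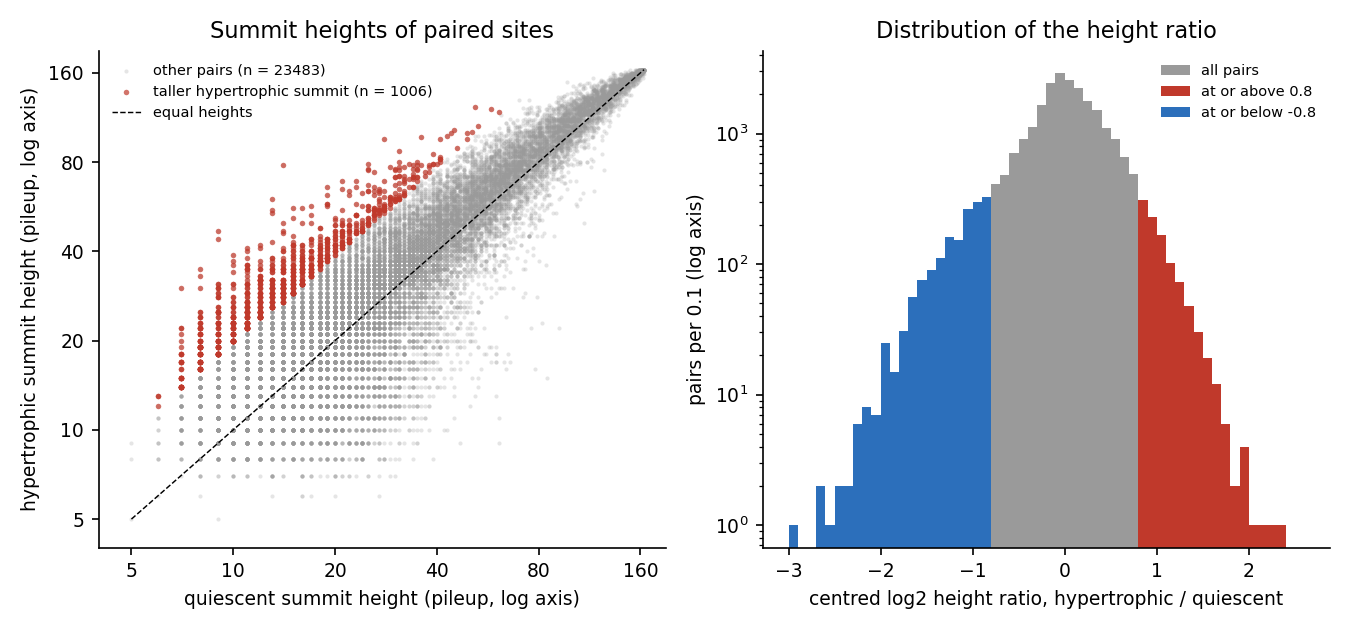
Left, summit heights of 24489 paired sites in quiescent (x) and hypertrophic (y) cells, in pileup on log axes, with hypertrophy-tall sites in red. Right, the centred log2 height ratio in classes of 0.1 with a log count axis: 1006 pairs lie at or above 0.8 (red) and 1632 at or below -0.8 (blue), and the red sites stop at a hypertrophic height of 123.

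The threshold cuts through a continuous distribution. Just inside it lay a site on chromosome 5 from 75838930 to 75839308 with heights of 54 and 28, hypertrophic first as in all such pairs of values below. With heights of 27 and 14, a site on chromosome 1 from 41165825 to 41166047 and one on chromosome 10 from 78069051 to 78069534 shared its centred ratio of 0.80. The nearest pairs outside, on chromosome 12 from 34582651 to 34583180, chromosome 13 from 71903213 to 71903739 and chromosome 20 from 26141339 to 26141764, each had heights of 52 and 27. Their height ratio was 1.926, against 1.929 for the nearest sites inside. Sites on either side of the bound were thus almost alike.

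Many sites were also near the bound in reads. With the hypertrophic height lowered by 1 and the quiescent height raised by 1, 590 sites (58.6%) still met the bound, and with 2 reads moved at each summit 320 (31.8%) did. With 3 reads moved at each summit, 184 sites (18.3%) met it, while 994 of the 1006 kept a ratio above that of the median pair. How far the heights of 1 condition vary from culture to culture cannot be read from a single list.

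Low and middling summits supplied nearly all of the sites. The geometric mean of the 2 heights was over 10 to 20 at 441 sites and over 20 to 40 at 447. These were 6.04% (interval 5.50 to 6.61%) of 7301 pairs and 5.65% (interval 5.15 to 6.18%) of 7911 pairs in those classes. From over 40 to 80 the share was 1.85% (102 of 5500 pairs), and above 80 it was 0.0611% (2 of 3272). At means up to 10 the counts on either side were equal, 14 hypertrophy-tall sites and 14 pairs with a centred ratio of -0.8 or lower, each 2.77% of 505 pairs. In the class over 10 to 20, 935 pairs (12.8%) lay as far on the quiescent side, and in that over 20 to 40, 599 (7.57%) did. Over all classes there were 1632 such pairs, 6.66% of the 24489. The bounds ask for unlike height ratios because of the centring. A hypertrophy-tall site needs a ratio of at least 1.93, and a pair on the quiescent side one of at most 0.636. Without centring 1769 pairs met the hypertrophic bound. The quiescent side was not counted then, but its pairs would all be among the 1632, so it would be the smaller group. Which side holds more large differences in height thus depends on the centring and cannot be read from these counts. From over 40 to 80, hypertrophy-tall sites were the larger group, with 102 against 81 pairs on the quiescent side (1.47%, interval 1.17 to 1.83%, which overlaps the 1.51 to 2.25% of the hypertrophy-tall sites). Neither list held a height above 164, and 417 of all pairs but 0 hypertrophy-tall sites had a height of 150 or more. With a ratio of at least 1.93 required, no pair whose quiescent height times 1.93 exceeds 164 could be hypertrophy-tall. The low share above 80 and the 0 sites at 150 or more are thus partly set by this limit. Whether the tallest summits differ less between conditions cannot be read from them.

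**Figure D2:**
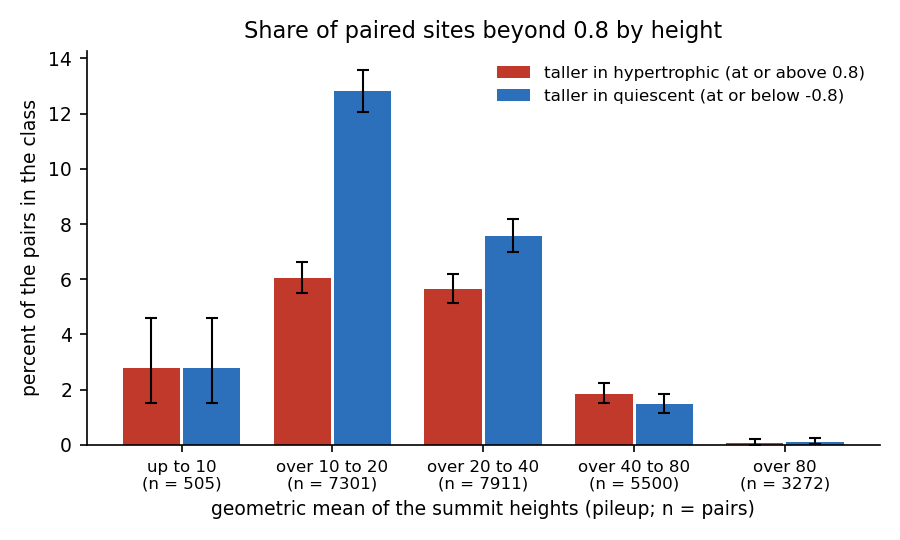
Percent of the pairs in each class of geometric mean summit height (pileup) with a centred log2 height ratio at or above 0.8 (red) or at or below -0.8 (blue). Error bars are exact 95% binomial intervals for counting error only. Both shares are highest from over 10 to 20, at 6.04% and 12.8%, and fall below 0.1% above 80. No height exceeded 164, which limits the ratios possible in the top class.

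The tallest relative gain was at a site on chromosome 18 from 74883079 to 74883909. Its heights were 78 and 14, a ratio of 5.57, and its scores 2360.62 and 517.59. Both peaks were of like width, 831 and 742 bp, with summits 12 bp apart, and no other pair and no condition-only peak lay within 10 kb. It was the 1 site that ranked in the top 10 by ratio, by hypertrophic score and by height difference.

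The other sites with the largest ratios had small quiescent pileups of 7 to 13. On chromosome 3, the peak from 2941786 to 2942098 had heights of 47 and 9, a ratio of 5.22. Chromosome 9 held 3 of the 10 sites: from 21546276 to 21546518 with heights of 44 and 9, from 87029838 to 87030385 with 60 and 13, and from 42681787 to 42682102 with 35 and 8. The second of these had the same summit base in both conditions. Heights of 30 and 7 were found on chromosome 10 from 107964476 to 107964864, and of 55 and 13 on chromosome 7 from 54587276 to 54587787. Chromosome 6 held 2 more, from 22271554 to 22272101 with heights of 54 and 13, and from 55147385 to 55147722 with 33 and 8. The tenth, on chromosome 3 from 130234962 to 130235395, had heights of 39 and 10. In these 10 sites the hypertrophic score was from 3.33 to 8.43 times the quiescent score. Their quiescent scores were from 106.87 to 517.59, and the second highest was 222.65, so in quiescent cells most were modest peaks.

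The 10 sites with the largest height difference had hypertrophic heights of 78 to 123 and quiescent heights of 14 to 61. The largest difference, 71, was on chromosome 9 from 90001337 to 90002040, with heights of 123 and 52 and scores of 1837.71 and 353.34. A site on chromosome 19 from 52487257 to 52487889 followed with heights of 96 and 28. It had the largest score ratio of all 1006 sites, 9.79, from scores of 1185.51 and 121.06, and 4 hypertrophic-only peaks lay within 10 kb. On chromosome 5 from 75733198 to 75733697 the heights were 121 and 58, and on chromosome 13 from 68647119 to 68647685 they were 97 and 36. The remaining sites of this kind were on chromosomes 1, 2, 3, 4 and 10, beside the chromosome 18 site. Among them, the site on chromosome 1 from 190264733 to 190265249 had the highest quiescent summit of any hypertrophy-tall site, 61 against 118, and lay just inside the bound with a centred ratio of 0.81.

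Some hypertrophy-tall sites were strong peaks in both lists. Both scores were 200 or more at 335 sites (33.3%) and 400 or more at 82 (8.15%), against 52.3% and 24.5% of all pairs. The highest hypertrophic score was that of a site on chromosome 17 from 3739523 to 3740643, 2638.89 against 1285.36, with heights of 57 and 28. On chromosome 12 from 5650554 to 5651184 the scores were 2436.93 and 1146.53 with heights of 60 and 29. A site on chromosome 2 from 54379705 to 54380407 had heights of 58 and 29, summits 1 bp apart and scores of 2161.79 and 1135.74. These 3 sites had nearly the same doubling of height on strong peaks of like width in both conditions. On chromosome 11 from 68236259 to 68238109, by contrast, the peak was 1851 bp wide in hypertrophic and 1037 bp in quiescent cells, with heights of 49 and 22 and 4 hypertrophic-only peaks within 10 kb.

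Scores moved in the same direction as heights at nearly every site. The median hypertrophic score was 402.4 and the median quiescent score 156.3, against 261.8 and 283.3 over all pairs. Score was higher in the hypertrophic list at 1000 of 1006 sites (99.4%), against 47.1% of all pairs, and at least double at 696 sites (69.2%), against 6.88% of all pairs. The median log2 score ratio was 1.24, with quartiles of 0.94 and 1.58, against -0.04 over all pairs. Score and height come from the same IP reads and the same control, so the score is not an independent measure of the gain. Quiescent scores were often close to the lower bound of the rule: 242 sites (24.1%) had one from 100 to under 120, against 8.09% of all pairs. Of pairs with a quiescent score from 100 to under 200, 8.16% (669 of 8203) were hypertrophy-tall, and of those with 800 or more 0.274% (10 of 3654) were. The rule favours a low quiescent height, and score goes with height, so this fall describes the choice. By hypertrophic score, pairs on the quiescent side showed the same fall. They were 981 of 8997 pairs with a score from 100 to under 200 and 29 of 3100 with 800 or more. By hypertrophic score the share was highest from 400 to under 800, at 7.64% (360 of 4711 pairs).

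**Figure D3:**
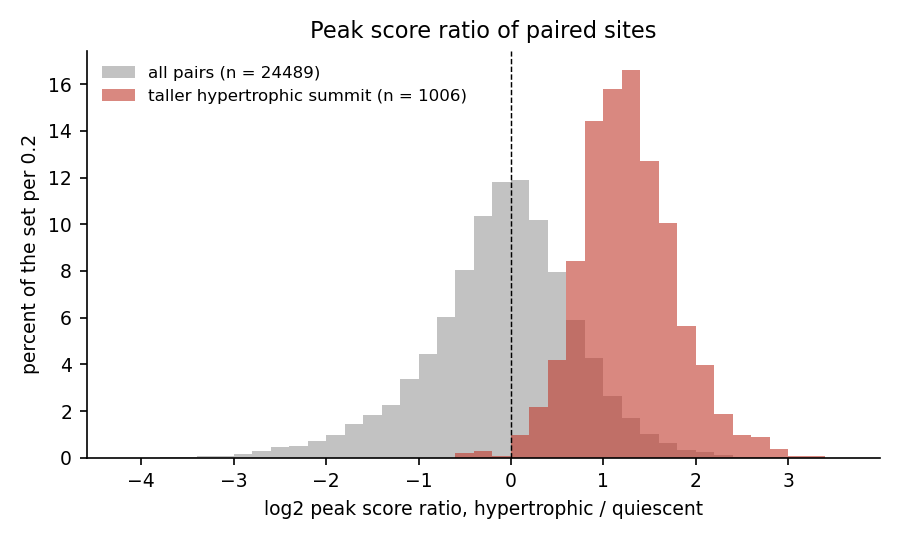
Log2 ratio of the hypertrophic to the quiescent peak score in classes of 0.2, as percent of 1006 hypertrophy-tall sites (red) and of 24489 pairs (grey). The red sites centre on a median of 1.24 and the pairs on -0.04, and 6 red sites lie below 0.

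In 6 sites the taller hypertrophic summit came with the lower score; they were singled out after their values were seen. The largest gap was on chromosome 9 from 38180590 to 38181320, where heights of 56 and 28 came with scores of 181.20 and 260.30 on peaks of 731 and 732 bp. A site on chromosome 20 from 2921420 to 2922552 had heights of 60 and 30 and scores of 153.85 and 200.47. The others were on chromosomes 1, 3, 8 and 20. Hypertrophic scores at these 6 sites were all under 200, while their quiescent scores ran from 138.15 to 260.30.

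Peaks at these sites were usually a little wider in hypertrophic cells. Their median width was 419.5 bp in hypertrophic and 364 bp in quiescent cells, against 442 and 448 bp over all pairs. The hypertrophic peak was the wider one at 732 sites (72.8%), against 48.7% of all pairs, and the median log2 width ratio was 0.16. At 503 of the 1006 sites the quiescent peak lay wholly inside the hypertrophic one, against 28.9% of all pairs. The reverse was found at 112 sites (11.1%), against 28.4% of all pairs. The summits of a site lay a median of 13 bp apart (quartiles 5 and 32 bp), against 9 bp over all pairs. They were within 10 bp at 43.2% of sites and 52.6% of all pairs, and on the same base at 35 sites (3.48%) and 5.77% of all pairs. Among pairs on the quiescent side the median distance was 21 bp, with 32.8% within 10 bp, so the wider gap was not particular to these sites. The width shift was reversed there, with the hypertrophic peak wider at 14.6%.

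Most of the sites had no other hypertrophy-tall site within 10 kb, although having one was more common than for all pairs. With sites whose summits lay within 10 kb of the next joined into a locus, there were 979 loci, of which 954 held 1 site, 23 held 2 and 2 held 3. A second hypertrophy-tall site within 10 kb was found for 52 of 1006 sites (5.17%, interval 3.88 to 6.72%). For all pairs the share with such a site nearby, other than themselves, was 2.28%. Being near another pair of any kind was as common for them as for pairs in general, 40.3% (405 sites) against 40.5%.

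Other m6A sites close to a hypertrophy-tall site tended to be taller in hypertrophic cells as well. Of the 405 sites with another pair within 10 kb, the nearest one, which shares no peak with the site, had a centred ratio above 0 in 291 cases (71.9%, interval 67.2 to 76.2%). Around all pairs the share was 50.1% (4968 of 9920). The median centred log2 ratio of that nearest pair was 0.22 around hypertrophy-tall sites and 0.00 around all pairs. Most such neighbours did not reach the bound themselves: 46 of the 405 (11.4%) did, against 3.99% around all pairs. Around the pairs on the quiescent side, 145 of 467 nearest pairs (31.0%) were above 0, with a median of -0.28. Intervals treat neighbours as independent although close ones can share a locus. The values come from the same lists and the same control as the rule, so no test was made.

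The shift of the neighbours was smaller at larger distances. All other pairs at 0.5 to 1 kb from a hypertrophy-tall site had a median centred log2 ratio of 0.34, with 77.0% of 61 above 0. At 1 to 2 kb the median was 0.18 (81 neighbours), at 2 to 5 kb 0.21 (182), and at 5 to 10 kb 0.18 (248). It was 0.11 both at 10 to 20 kb (420 neighbours) and at 20 to 50 kb (1127), 0.07 at 50 to 100 kb (1853) and 0.05 at 100 to 200 kb (3043). At 200 to 500 kb it was 0.01, with 51.1% of 8295 above 0, near the 49.97% around all pairs at that distance. Below 0.5 kb there were 8 neighbours, too few to summarise. The median around all pairs stayed between -0.02 and 0.01 in each of these classes.

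**Figure D4:**
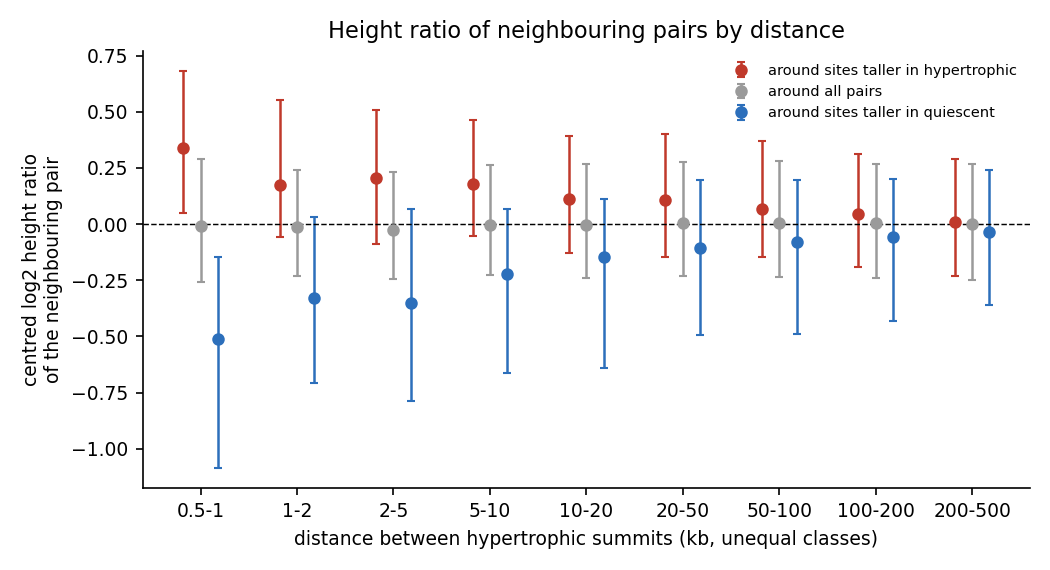
Median centred log2 height ratio (points) and quartiles (bars) of all other pairs in classes of distance (kb) from hypertrophy-tall sites (red), from all pairs (grey) and from pairs at or below -0.8 (blue). The red medians go from 0.34 at 0.5 to 1 kb to 0.01 at 200 to 500 kb, and the blue from -0.51 to -0.04.

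Peaks found in only 1 list showed a like pattern. A hypertrophic-only peak, which overlaps no quiescent peak, lay within 10 kb of 389 hypertrophy-tall sites (38.7%, interval 35.6 to 41.8%), against 25.3% of all pairs. A quiescent-only peak lay within 10 kb of 174 sites (17.3%, interval 15.01 to 19.8%), against 25.2% of all pairs. Hypertrophic-only without quiescent-only peaks were near 323 sites (32.1%, against 19.0% of all pairs), and the reverse held for 108 sites (10.7%, against 18.9%). Around the 1006 sites lay 530 hypertrophic-only peaks and 210 quiescent-only peaks in all, a peak being counted once for each site it lies near. Within 2 kb the shares were 12.3% and 4.47%, against 6.71% and 7.26% of all pairs. No peak with a score under 50 was deposited, and a counterpart below that score would not be seen.

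The 5 loci with the most sites, ties going to the larger summed height difference, show how such neighbourhoods look. On chromosome 15 from 40415461 to 40422932, 3 sites lay within 6900 bp, with heights of 49 and 22, 79 and 39, and 31 and 14. The first was among the 10 highest hypertrophic scores, 2294.28 against 555.66, on a peak of 1606 bp in hypertrophic and 879 bp in quiescent cells. The 1 further pair within 10 kb was also taller, 31 and 20, a centred log2 ratio of 0.49 that is below the bound. All 4 pairs in this neighbourhood were thus above the median ratio, with 1 hypertrophic-only and 0 quiescent-only peaks beside them.

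On chromosome 3 from 974728 to 980646, 3 sites within 5096 bp had the same heights, 23 and 10. Their quiescent summits also lay at the same place in the peak, 168 bp from its start, and their quiescent scores were alike at 244.95, 234.30 and 236.70. The hypertrophic scores were 564.19, 542.44 and 612.98. Another pair between them had heights of 20 and 11, and the neighbourhood held 0 hypertrophic-only and 1 quiescent-only peaks. Whether the 3 sites are copies of a repeated sequence was not tested, since no rn4 genome was used here.

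Elsewhere the neighbours were less uniform. On chromosome 1 from 80743220 to 80753034, 2 sites had heights of 69 and 23 and of 52 and 25, while the remaining pair within 10 kb was lower in hypertrophic cells, 11 and 14. Here 4 hypertrophic-only peaks and 1 quiescent-only peak lay nearby. The locus on chromosome 20 from 11576639 to 11581567 held sites of 78 and 34 and of 25 and 9, beside a pair of 33 and 26 and no condition-only peak. On chromosome 9 from 108361168 to 108362535, adjacent peaks with summits 603 bp apart had heights of 42 and 21 and of 69 and 35, with 3 hypertrophic-only and 0 quiescent-only peaks nearby. A pair 3853 bp from the first of them was 26 and 29, close to equal. Another pair, 9880 bp from the first, was taller in hypertrophic cells, 54 and 40, a centred log2 ratio of 0.29. In the loci on chromosomes 1 and 9, the gain at 2 sites was therefore not shared by every pair of the neighbourhood.

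**Figure D5:**
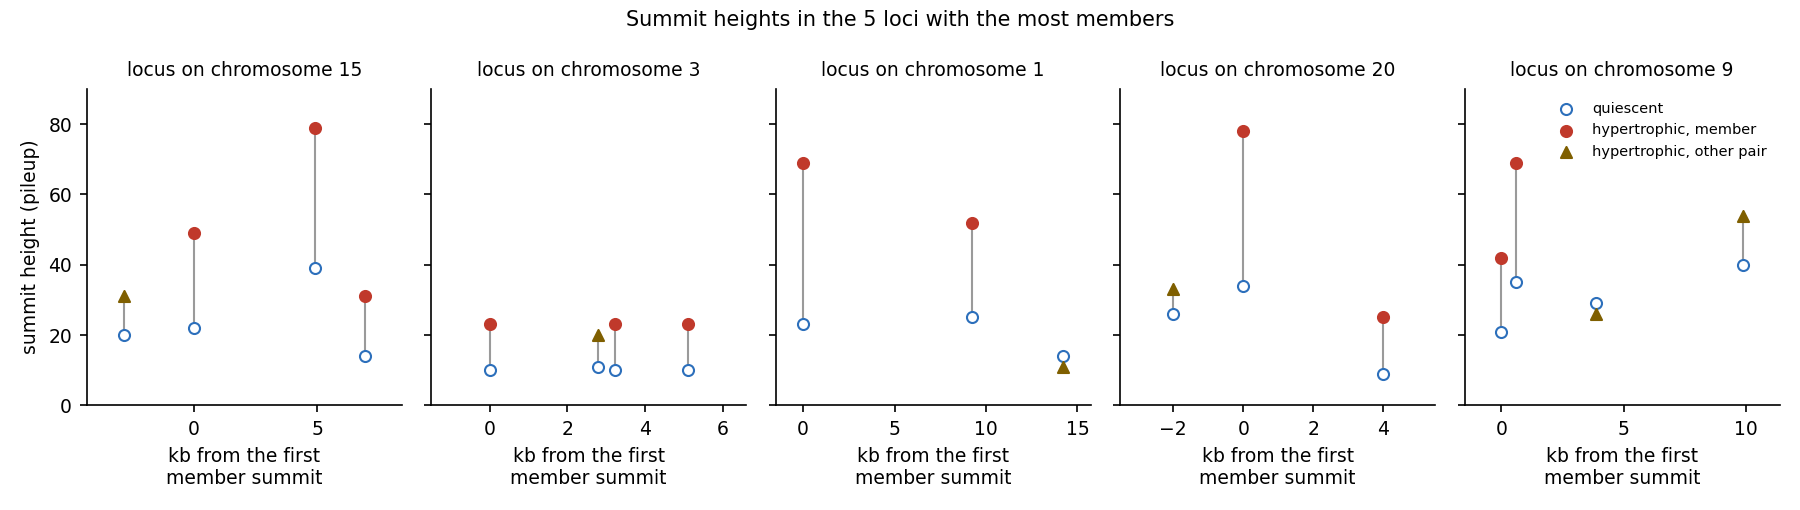
Summit heights (pileup) in hypertrophic (filled) and quiescent (open) cells of every pair within 10 kb of the 5 loci with the most hypertrophy-tall sites, by distance in kb from the first such summit. Red circles are hypertrophy-tall sites and brown triangles other pairs; a grey line joins the heights of a pair. In 3 panels, those of chromosomes 15, 3 and 20, all pairs are taller in hypertrophic cells.

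Every chromosome listed, 1 to 20 and X, held hypertrophy-tall sites. The share of pairs that were hypertrophy-tall ran from 3.02% on chromosome 5 (45 of 1492, exact interval 2.21 to 4.02%) to 6.53% on chromosome 15 (50 of 766, interval 4.88 to 8.52%). The intervals of the other 19 of 21 chromosomes include the overall 4.11%. On chromosomes 15 and X there were more hypertrophy-tall sites than pairs on the quiescent side, 50 against 40 and 24 against 19. On the other 19 there were fewer. Both bounds are on the centred ratio and ask for unlike fold differences in height, so these comparisons depend on the centring. The median centred log2 ratio of all pairs on chromosome 15 was 0.01, so its pairs as a whole were not shifted. The intervals cover counting error only, and neighbouring sites are not independent.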

How the data were processed

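m6A IP peaks of hypertrophic and quiescent rat cardiomyocytes were compared by position. Per the submitters' processing notes, which give no parameters, CASAVA 1.8, TopHat and MACS 1.4 were used with rat build rn4. The authors deposited 1 peak list with a score per peak and 1 summit list with a signal (pileup height) per condition. The deposited score has the layout of the MACS peak output, where it is a multiple of minus log10 of p. All columns of values belong to listed groups, and 0 were left out. The sources used here give no read totals, so depth is unknown beyond the summit heights.

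Summits were paired, heights compared and neighbours counted with Python 3.11.15, numpy 2.4.6, pandas 2.3.3, scipy 1.17.1 and matplotlib 3.10.9. The pairing and the neighbour search were tested on simulated lists. The second list was a copy of the hypertrophic one with slightly moved summits and planted differences well beyond the bound. It checked the computation, not how well sites near the bound are told apart. Shares carry exact Clopper-Pearson 95% intervals. The members and the lists were chosen with earlier results of these data known. Named are the 10 sites with the largest centred ratio, the 10 with the highest hypertrophic score, the 10 with the largest height difference (examples of the latter 2), the 5 loci with the most sites, and 3 pairs on each side of the bound. The alternatives changed the pairing bounds, the threshold, the centring, the heights used and the neighbour distance. Gene names and sequences need an rn4 annotation or genome and are not used here.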

Additional observations from a re-analysis of the deposited data

How the results depend on the processing

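Over 17 alternatives, 96 of 141 values stayed within the interval of the reported value (for the number of sites, within 1.5 times), and 45 moved. The 96 include 9 that could not differ, since requiring mutually nearest summits gave the same 24489 pairs. The direction of the height ratio is fixed by the rule. The median log2 score and width ratios ran from 0.98 to 1.49 and from 0.13 to 0.21. The threshold does not use them, but they come from the same reads as the heights and are not independent checks. Medians had binomial intervals. The number of sites depended on the rule: 2436 with a score minimum of 50, 345 with 200, 2163 with a threshold of 0.6, 474 with 1, 1769 without centring and 456 with 5 added to each height, an alternative chosen after seeing the data. Their shares of all pairs were 5.86%, 2.69%, 8.83%, 1.94%, 7.22% and 1.86% in that order, and 3.52% with both heights at least 10. In the same order, the median log2 score ratio was 1.29, 1.16, 0.98, 1.46, 1.04 and 1.49. With the score minimum of 200, the thresholds of 0.6 and 1 and the added 5, the median centred ratio was 0.94, 0.78, 1.15 and 0.92. The hypertrophic score was higher at 100%, 98.0%, 100% and 100% of the sites under these 4, and at 98.6% without centring. The median log2 width ratio was 0.21 with the score minimum of 50, 0.13 with the threshold of 0.6 and 0.18 with 1. Another site within 10 kb was found for 10.1% and 3.19% with the score minimum of 50 and 200, 9.66% with the threshold of 0.6, 8.59% without centring and 3.51% with the added 5, and for 1.99% within 2 kb and 14.7% within 50 kb. The nearest pair was above 0 for 65.7% with the score minimum of 50, 79.2% without centring (where 0 is an equal height) and 65.8% within 50 kb. Around all pairs the share within 50 kb was 50.5%. Without centring the median pair itself lies above 0, at 0.15, so the 79.2% cannot be set against the 71.9% of the main rule. A hypertrophic-only peak was near 43.8% with the score minimum of 200 and 35.6% with the threshold of 0.6, and near 12.3% within 2 kb and 78.0% within 50 kb. Over all pairs a hypertrophic-only peak was near 6.71% within 2 kb and 63.4% within 50 kb. A hypertrophy-tall site other than themselves was near 0.613% and 7.93% of all pairs at these distances. Neighbour shares over all pairs were not computed under the alternatives that changed the rule. A lower threshold or score minimum admits more sites by construction, as does leaving out the centring, which lowers the bound. A larger neighbour distance can only raise the shares with another site or a hypertrophic-only peak nearby. For the other shifts the cause was not tested.

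No paired analysis was possible because each condition has 1 list and no values per replicate. Leaving out a replicate was not run for the same reason. Small pileups limit precision: the quiescent height was under 10 at 189 sites (18.8%), against 3.03% of all pairs.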

Other observations

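The 1006 hypertrophy-tall sites fell into 719 of the 2484 windows of 1 Mb that held a pair, with 1 site in 507 of them and 5 in 4. The latter 4 windows were looked at after their values were seen, and their other pairs are given without the 5 sites that the rule chose. On chromosome 20 from 26000001 to 27000000, 24 of 29 other pairs had a centred ratio above 0, with a median of 0.26. On chromosome 8 from 53000001 to 54000000 it was 6 of 11 with a median of 0.05, and on chromosome 1 from 107000001 to 108000000 it was 6 of 10 with a median of 0.09. On chromosome 1 from 80000001 to 81000000, 15 of 30 other pairs were above 0, with a median of -0.01.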
